A study of Mus musculus with 24 samples.

Results

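The peaks of open chromatin at 39 mouse genes of cytokine signaling were followed in CD8 T cells sorted from melanomas and lymph nodes: 23 receptor chains (7 of the common gamma chain family, 5 of the IL-6, IL-12 and IL-27 family, 2 of the IL-10 family, 6 of the IL-1, IL-18 and IL-17 family and 3 for TGF-beta), 3 JAK kinases, 5 STAT factors, 2 JAK-STAT feedback inhibitors, 4 SMAD factors and 2 SMAD corepressors. A peak belonged to a gene when its summit lay inside the gene, or within 100 kb with that gene as the nearest of 21631 protein-coding genes on build GRCm38. By this rule 3691 of 565505 peaks (0.653%) in 18 peak lists lay at these 39 genes. Nearness does not show that a region acts on the gene.

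The cells came from Lag3-iCreERT2 Rosa26-LSL-tdTomato mice on the C57BL/6 background, in which tamoxifen switches on a red label in cells that express Lag3 at that time and in their descendants. All mice carried B16-F10 melanoma, a transplantable mouse tumor line, and all received 2 mg of tamoxifen on days 8 to 10 after implantation, with tissue taken on day 19. From tumor there were 4 libraries of cells with LAG3 and tdTomato (DP), 3 named LAG3_SP, 3 named TDT_SP and 4 of cells with neither (DN). The lymph nodes, one set draining the tumor (DLN) and one not (NDLN), contributed 1 LAG3_SP, 2 TDT_SP and 2 DN libraries per site. The labels of the SP groups conflict, since the cells of LAG3_SP are given as lacking LAG3 and carrying tdTomato while those of TDT_SP are given as carrying tdTomato with LAG3 not mentioned, so the library names are kept and no LAG3 state is assumed. The label records Lag3 expression during tamoxifen treatment alone, so a DN cell may have expressed Lag3 at another time. Whether replicates are separate animals is not stated in the labels, so each p-value measures the spread between these libraries, which may be technical.

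Cytokines of the common gamma chain, IL-6, IL-12, IL-27 and IL-10 families act through receptor chains that lack enzymatic activity and carry JAK kinases on their inner side. The JAKs phosphorylate STAT factors, which then enter the nucleus, and STAT targets such as Cish feed back on the receptor. TGF-beta instead binds receptor kinases that phosphorylate Smad2 and Smad3, which join Smad4, while Smad7, Ski and Skil restrain the pathway. In CD8 T cells IL-2, IL-7 and IL-15 support expansion and survival, IL-12 and IL-18 support effector function, and TGF-beta restrains effector function and supports tissue residency.

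Each library gave 1 list of peaks. Read counts were not part of it, so depth is unknown and no interval for counting error can be given. The 18 lists used held 14244 to 48268 peaks. The other 6 held 301 to 6613 peaks and stayed out of the fits: tumor DN replicate 3, tumor DP replicate 3, and replicate 2 of DLN DN, DLN TDT_SP, NDLN DN and NDLN TDT_SP. Each tumor group thus had 3 libraries, and each lymph node group 1. Among the lists used, tumor LAG3_SP replicate 3 and NDLN LAG3_SP had the narrowest peaks, with medians of 147 and 164 bp, then tumor DN and DP replicates 4 with 206 and 209 bp, against 262 to 388 bp elsewhere. The tumor libraries DP replicate 4, LAG3_SP replicate 3, TDT_SP replicate 3 and DN replicate 4 stood apart as a set: their deviations from the group means correlated with each other at 0.187 to 0.333, with the other 8 tumor libraries at -0.251 to -0.0513, and those 8 among themselves at 0.027 to 0.189 (across regions, 1 library of the set in each group). The values below are rank values. A region of 501 bp received, in each library, the quantile of its peak among the strongest 19000 (12 tumor libraries) or 14000 (tumor and node libraries) by the authors' −log10 p, so that 1 marks the strongest peak and 0 means no peak among those kept. It gives the order of peaks inside 1 library, not how much chromatin was open. In bulk cells, fewer cells with an open region and a weaker opening per cell cannot be told apart.

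The share of each library's peaks at the 39 genes overlapped between the tumor groups when many peaks were kept. Of the strongest 19000 peaks it was 0.634% ± 0.035 in DP, 0.632% ± 0.056 in LAG3_SP, 0.651% ± 0.017 in TDT_SP and 0.642% ± 0.048 in DN tumor libraries (SD, n = 3 each). Of the strongest 14000 it was 0.573% ± 0.058 in tumor (SD, n = 12) and 0.63% ± 0.063 in lymph node libraries (SD, n = 6), and these ranges overlapped. Of the strongest 4000 it was 0.35% ± 0.1 in DP, 0.4% ± 0.025 in LAG3_SP, 0.267% ± 0.063 in TDT_SP and 0.267% ± 0.063 in DN tumor libraries (SD, n = 3 each), and the LAG3_SP libraries (0.375% to 0.425%) lay above those of TDT_SP and DN (0.2% to 0.325% in each). The tumor libraries gave 177 regions at 37 of the genes, of which 109 lay inside the gene. The tissue comparison gave 150 regions at 36 genes. Within 1 kb of an annotated start site lay 30 of the 177 (16.9%), against 9699 of all 27065 regions (35.8%). Start sites were annotated for 27 of the 39 genes alone, so regions at the starts of the other genes could be counted as elsewhere. The 16.9% may thus be too low, and the comparison does not show whether these genes differ from regions in general. A peak was kept in all 12 tumor libraries for 48 of the 177 (27.1%), against 37.9% of all regions.

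Of the 39 genes, 19 had a peak among the strongest 14000 in all 18 lists, 18 in some of them and 2 in none. The 2 without were Il1r1, the signaling receptor for IL-1, and Socs2, a feedback inhibitor, with 9 and 33 weaker peaks over the 18 lists. Jak1, the kinase shared by the gamma chain, IL-6 and IL-10 receptors, had the most peaks (321 over the 18 lists), followed by the TGF-beta receptor gene Tgfbr2 (302) and Smad3 (216). Ski held the strongest peaks of the set: its best region had rank values between 0.859 and 0.995 with a median of 0.954, and in 13 of 18 lists the strongest peak of all 39 genes was at Ski. In 3 other lists it was at Il12rb2, the inducible chain of the IL-12 receptor, in 1 at Smad3 and in 1 at Tgfbr1.

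At the other end, Il12rb1, which pairs with Il12rb2, had a kept peak in 2 of 18 lists, Il18rap, the second chain of the IL-18 receptor, in 3, and Il1r2, the decoy receptor for IL-1, in 5. Il7r, the IL-7 receptor chain of naive and memory cells, had a kept peak in 6 of 18 lists. The plot of peaks per gene shows that Il6st and Smad4 had more kept peaks in the nodes. Il6st, which encodes the shared gp130 chain, had a mean of 3.17 kept peaks in tumor (2 to 4) and 5.33 in nodes (4 to 6). Smad4 had 1.67 in tumor (1 to 2) and 3.5 in nodes (2 to 5), and Il7r had 0.167 (0 to 1) and 1.33 (0 to 2). Stat3 leaned the other way, with 2.83 in tumor (1 to 4) and 1.33 in nodes (1 to 2), as did Il1rl1, the IL-33 receptor gene, with 1.67 (0 to 3) and 0.5 (0 to 3). These numbers of peaks per gene are a description and were not tested.

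**Figure D1:**
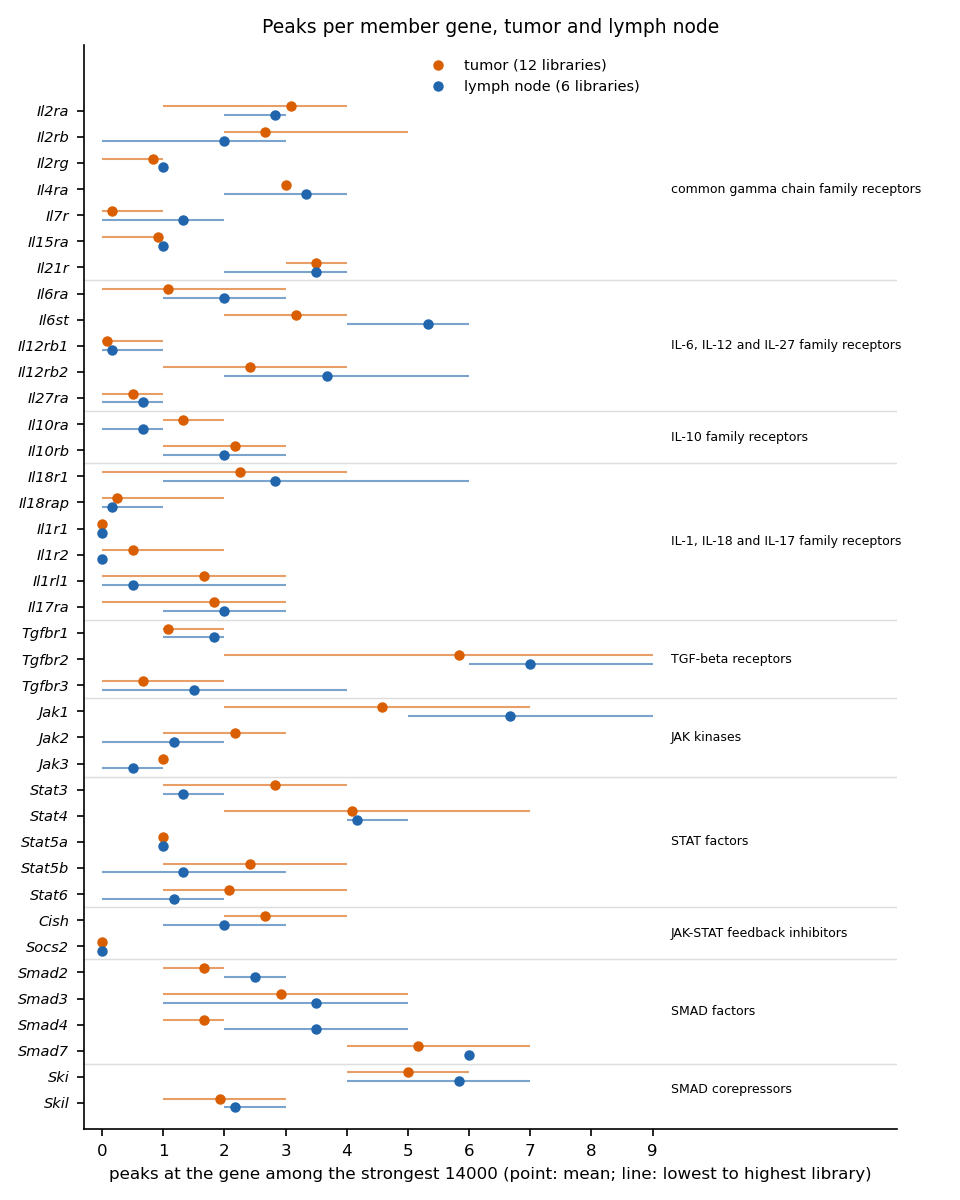
Peaks per gene among the strongest 14000 of a library, for the 39 genes in order of role. Points are means over 12 tumor or 6 lymph node libraries and lines run from the lowest to the highest library. Il6st, Smad4 and Jak1 had more peaks on average in nodes, Stat3 and Il1rl1 more in tumor, and Il1r1 and Socs2 had none.

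DP, LAG3_SP and TDT_SP were compared with DN to ask what set them apart at these genes. All 3 are described as tdTomato-positive and are called labelled below. For LAG3_SP this rests on the description that conflicts with its name. The name can be read as LAG3 without tdTomato, so the tdTomato state of LAG3_SP is uncertain. In all 3 groups single regions at Jak1, Smad7, Il6st and Tgfbr2 stood at or near 0 where DN had a peak. Regions at Il1rl1 and Stat3 were higher in DP and LAG3_SP, at Il18r1 in DP, and at Il1r2, Il21r, Jak2 and Stat4 in LAG3_SP. In the limma fit of all 27065 regions, 3 of the 177 regions were higher in DP and 6 lower, where 3.94% of all regions were called (2.6% higher, 1.34% lower). LAG3_SP had 7 higher and 7 lower (5.62% of all regions; 3.61% higher, 2.01% lower). TDT_SP had 0 higher and 6 lower (0.576% of all regions; 0.214% higher, 0.362% lower). For the 177 regions the share called in either direction was 5.08% in DP, 7.91% in LAG3_SP and 3.39% in TDT_SP, and their median difference was 0.0, -0.00314 and 0.00579, against -0.005, -0.0166 and 0.00265 over all regions. The 3 comparisons share the DN libraries, so their calls are not independent of each other. In all 9, 14 and 6 called regions the libraries of the 2 groups did not overlap. Over all regions the same held for 1067 of 1067, 1521 of 1522 and 156 of 156 calls. The lack of overlap in called regions thus does not set these genes apart. Groups without overlap were seen in 37, 35 and 29 of the 177 regions (20.9%, 19.8% and 16.4%) for DP, LAG3_SP and TDT_SP, against 5400, 5849 and 4036 of all 27065. Where a group is at 0 in all its libraries it has no spread of its own, and limma takes the spread from the other groups and regions. With all peaks of each list kept, in place of the same number per library, none of these calls remained, and in fits of 2 groups alone 1, 0 and 0 remained. With the set of libraries that stood apart as a block, an alternative chosen after seeing the data, DP had 17, LAG3_SP 20 and TDT_SP 6 called regions, which included all 9, 14 and 6. Single libraries moved the counts: DP had 5 and 4 without DP replicates 1 and 2 and 14 without LAG3_SP replicate 3, LAG3_SP had 9 without DN replicate 1, and TDT_SP had 1 to 3 without any 1 of the DP or TDT_SP libraries or LAG3_SP replicate 1 or 2.

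Of the 7 regions lower than in DN, 6 were called in all 3 labelled groups. For 5 of the 177 regions (2.82%), 2 at Jak1, 2 at Smad7 and 1 at Il6st, every DN library had a kept peak and no labelled library had one. Over all regions that pattern held for 0.573%, and it was chosen after the values were seen. A value of 0 here means no peak among the strongest 19000, and weaker peaks were present in the whole lists: at the Jak1 regions in 6 and 5 of the 9 labelled libraries, at Il6st in 3 and at each Smad7 region in 2, both of TDT_SP, against 3 of 3 DN libraries at all 5. Inside Jak1, 89.74 kb downstream of its start (chr4:101175229-101175729), where the strongest labelled peak stood at place 20017 of its list, the rank values were 0 in all 9 DP, LAG3_SP and TDT_SP libraries and 0.341, 0.516 and 0.487 in DN. The difference was -0.448 in each comparison (SE 0.0598, limma adjusted p = 0.00174 in DP, 0.00147 in LAG3_SP and 0.00509 in TDT_SP). No leave-one-out fit ended this call in any of the 3 comparisons. A second Jak1 region 97.24 kb downstream of the start (chr4:101167730-101168230) was again at 0 in the 9 labelled libraries and at 0.211, 0.282 and 0.14 in DN (difference -0.211, SE 0.0425, limma adjusted p = 0.0154, 0.0124 and 0.0471 in the same order). Its DP call ended without DP replicate 1 or 2 (highest adjusted p 0.0623), and its TDT_SP call ended when any library except DN replicate 4 was left out (highest 0.17).

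Smad7, whose product blocks the TGF-beta receptor, had the largest of these differences. A region 14.44 kb beyond the gene was at 0 in the 9 labelled libraries and at 0.581, 0.632 and 0.325 in DN (difference -0.513, SE 0.0772, limma adjusted p = 0.00328 in DP, 0.00283 in LAG3_SP and 0.00849 in TDT_SP). A region inside Smad7 was at 0 in the same 9 libraries and at 0.289, 0.319 and 0.136 in DN (difference -0.248, SE 0.0494, limma adjusted p = 0.0146, 0.0119 and 0.046). Without TDT_SP replicate 1 the TDT_SP call of the distal region ended (0.0525), the DP call of the inner region ended without DP replicate 1 or 2 (highest 0.0594), and its TDT_SP call ended when any library except DN replicate 4 was left out (highest 0.163). The other Smad7 regions did not pass the test, and 5 of the 48 regions with a kept peak in all 12 tumor libraries were at this gene, so Smad7 held peaks in all groups and changed at single regions.

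At the receptors, Il6st and Tgfbr2 each had 1 region lower in all 3 labelled groups. A region 1.04 kb outside Il6st and 43.83 kb downstream of its start (chr13:112507648-112508148) was at 0 in the 9 labelled libraries and at 0.376, 0.248 and 0.307 in DN (difference -0.31, SE 0.0469, limma adjusted p = 0.0033, 0.00285 and 0.00849 for DP, LAG3_SP and TDT_SP). Upstream of Il6st a pair of regions less than 1 kb apart had values in opposite order, which did not pass the test. At 38.57 kb upstream the rank values were 0.506, 0.812 and 0.354 in DP and 0, 0.045 and 0 in DN, whereas at 39.25 kb upstream they were 0.204, 0 and 0 in DP and 0.626, 0.616 and 0.435 in DN. The Il6st start site itself was among the steady regions, at 0.783 ± 0.038 in DP, 0.815 ± 0.035 in LAG3_SP, 0.824 ± 0.026 in TDT_SP and 0.795 ± 0.029 in DN (SD, n = 3 each).

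Tgfbr2, the ligand-binding TGF-beta receptor kinase, had 15 regions in tumor, more than any other of the 39 genes, and 1 of them was called. Inside the gene, 29.94 kb downstream of the start (chr9:116145175-116145675), the rank values were 0 in the 3 DP libraries, 0.013, 0 and 0 in LAG3_SP and 0.067, 0.051 and 0 in TDT_SP, against 0.381, 0.274 and 0.269 in DN. The labelled libraries thus lay near or at 0 and below all DN libraries. The differences were -0.308, -0.303 and -0.269 (SE 0.0506, limma adjusted p = 0.0055 in DP, 0.00465 in LAG3_SP and 0.0341 in TDT_SP). The TDT_SP call ended without any of the 3 DP or 3 TDT_SP libraries or LAG3_SP replicate 1 or 2 (highest 0.146). Il2ra, the IL-2 receptor alpha chain, had a region inside the gene (chr2:11663950-11664450) at 0, 0.019 and 0 in LAG3_SP and 0.483, 0.229 and 0.514 in DN (difference -0.402, SE 0.107, limma adjusted p = 0.0455). It lay between these in DP (0.171, 0.04 and 0.07) and spread widely in TDT_SP (0.353, 0.065 and 0.362), and 9 of the 12 leave-one-out fits ended the call (highest 0.124).

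The regions higher than in DN lay at other genes, among them receptors of the IL-1 family, STAT factors and Jak2. At Il1rl1 a region 11.37 kb outside the gene (chr1:40393244-40393744) was at 0.703, 0.636 and 0.572 in DP, 0.681, 0.748 and 0.579 in LAG3_SP, 0.446, 0.457 and 0.511 in TDT_SP and 0.163, 0.033 and 0.347 in DN. The DP difference was 0.456 and the LAG3_SP difference 0.488 (SE 0.102, limma adjusted p = 0.026 and 0.0151). All TDT_SP libraries lay between the DP and LAG3_SP libraries above and the DN libraries below, without a call against either. The DP call ended without DN or DP replicate 1 or 2 (highest 0.107) and the LAG3_SP call without LAG3_SP replicate 2 (0.0583).

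Il1r2 was the gene where LAG3_SP and TDT_SP differed. A region 28.63 kb outside the gene (chr1:40055811-40056311) was at 0.505, 0.454 and 0.41 in LAG3_SP and at 0.399, 0.327 and 0.209 in DP, and no TDT_SP or DN library had a kept peak. It was the only 1 of the 177 regions (0.565%) with a kept peak in every DP and LAG3_SP library and in no other tumor library, against 0.44% of all regions. A kept peak in every labelled library and in no DN library was seen at 0 of the 177, against 0.813% of all regions. LAG3_SP exceeded DN by 0.456 (SE 0.0816, limma adjusted p = 0.00691) and TDT_SP by the same amount (adjusted p = 0.0326). The call against TDT_SP was the only 1 of the 177 regions between the labelled groups, where 0.938% of all regions were called (0.702% higher), and it ended without DN replicate 1 or 2, LAG3_SP replicate 1 or any TDT_SP replicate (highest 0.123). Without LAG3_SP replicates 2 and 3 in turn, 2 and 5 of the 177 regions were called. In the whole lists, weak peaks over the region were present in 2 of 3 TDT_SP and 0 of 3 DN libraries. Il18r1, the ligand-binding chain of the IL-18 receptor, had a region 0.92 kb outside the gene (chr1:40501521-40502021) at 0.199, 0.371 and 0.316 in DP, 0.161, 0 and 0 in LAG3_SP and 0 in TDT_SP and DN (DP difference 0.295, SE 0.0607, limma adjusted p = 0.017, up to 0.0562 without DN replicate 1 or 2 or DP replicate 2).

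Among the STAT factors, Stat3 had 2 regions higher. At 5.19 kb downstream of its start (chr11:100934102-100934602) the rank values were 0.674, 0.717 and 0.588 in DP, 0.776, 0.722 and 0.24 in LAG3_SP, 0.283, 0.337 and 0.564 in TDT_SP and 0, 0 and 0.129 in DN. LAG3_SP replicate 3 lay well below its group, and the DN libraries lay below all others. The differences were 0.617 in DP and 0.537 in LAG3_SP (SE 0.143, limma adjusted p = 0.0312 and 0.0463), and 5 and 11 of the 12 leave-one-out fits ended the calls (highest 0.103 and 0.159). At 18.07 kb downstream (chr11:100921224-100921724) the values were 0.313, 0.476 and 0.253 in LAG3_SP, 0.31, 0.409 and 0.22 in DP, 0, 0.092 and 0 in TDT_SP and 0 in the 3 DN libraries (LAG3_SP difference 0.347, SE 0.0857, limma adjusted p = 0.033, ended in 7 leave-one-out fits, highest 0.101).

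Stat4, the STAT of IL-12 signaling, had a region inside the gene (chr1:52040661-52041161) at 0.537, 0.51 and 0.569 in LAG3_SP, 0.288, 0.408 and 0.308 in DP, 0.294, 0.237 and 0.536 in TDT_SP and 0, 0 and 0.046 in DN. Every labelled library lay above every DN library, and the LAG3_SP difference of 0.524 passed the test (SE 0.109, limma adjusted p = 0.0149, 0.0535 without DN replicate 1). Jak2, the kinase of the IL-12 and interferon-gamma receptors, had a strong region inside the gene (chr19:29271069-29271569) at 0.911, 0.893 and 0.872 in LAG3_SP, 0.859, 0.939 and 0.74 in DP, 0.74, 0.849 and 0.466 in TDT_SP and 0.674, 0.547 and 0.269 in DN. The LAG3_SP difference was 0.395 (SE 0.105, limma adjusted p = 0.0458, ended in 8 leave-one-out fits, highest 0.128). Il21r, the IL-21 receptor gene, had the only called region at an annotated start site. At chr7:125603050-125603550 the rank values were 0.877, 0.738 and 0.847 in LAG3_SP, 0.651, 0.469 and 0.756 in DP, 0.267, 0.616 and 0.556 in TDT_SP and 0.241, 0.495 and 0.363 in DN. The LAG3_SP difference was 0.455 (SE 0.111, limma adjusted p = 0.032, ended without any LAG3_SP library or DN replicate 1 or 4, highest 0.109).

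**Figure D2:**
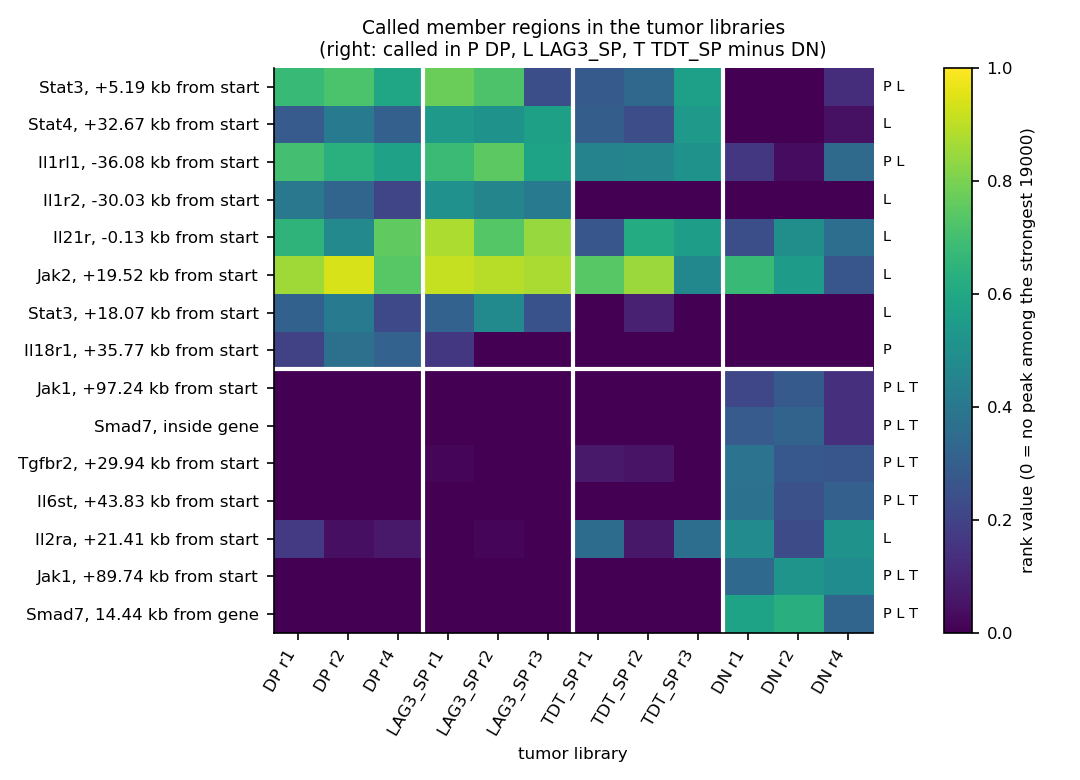
Rank values among the strongest 19000 peaks for the 15 regions called against DN, 1 column per tumor library (DP, LAG3_SP, TDT_SP, DN) and 1 line per region. The upper 8 were higher in at least 1 labelled group and the lower 7 lower; letters on the right give the groups in which limma called the region. Most of the lower 7 regions were dark (rank value 0) in all 9 labelled libraries, and Il1r2 was dark in TDT_SP and DN.

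Between the labelled groups themselves few differences passed. LAG3_SP minus DP had 0 of the 177 regions called by limma (0 of all regions, 0.0%), and 1 called without LAG3_SP replicate 3. The unadjusted limma p was under 0.05 for 9 of them (5.08%, against 5.81% of all regions). TDT_SP minus DP had 0 of 177 (0.0333% of all regions, 0.0148% lower), with 19 at an unadjusted p under 0.05 (10.7%, against 11.7% of all regions). The IL-10 receptors (10 regions), the feedback inhibitors (4 regions) and the corepressors (11 regions) had 0 called regions in any comparison of tumor groups. In these comparisons 0.0% to 5.62% of all regions were called, so 0 among so few regions does not set these families apart. Steady examples were the start region of Stat5a, at 0.875 ± 0.058 in DP, 0.734 ± 0.19 in LAG3_SP, 0.83 ± 0.044 in TDT_SP and 0.787 ± 0.023 in DN, and the strong Il12rb2 region inside the gene, at 0.875 ± 0.058 in DP, 0.84 ± 0.077 in LAG3_SP, 0.786 ± 0.067 in TDT_SP and 0.881 ± 0.022 in DN (SD, n = 3 each). Jak3, the kinase bound to the gamma chain, had its start region at 0.517 ± 0.048 in DP, 0.39 ± 0.17 in LAG3_SP, 0.552 ± 0.078 in TDT_SP and 0.477 ± 0.047 in DN.

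In the lymph nodes, the regions with kept peaks in DN alone among the tumor groups held a peak in most libraries. On the scale of the strongest 14000 peaks, the Jak1 region 89.74 kb from the start was at 0 in the 9 labelled tumor libraries, 0.106, 0.343 and 0.304 in tumor DN, and 0.409 to 0.852 in the 6 node libraries. The distal Smad7 region was at 0 in the 9 labelled tumor libraries, 0.431, 0.5 and 0.084 in tumor DN and 0.257 to 0.918 in the nodes. The Il6st region was at 0.355 and 0.416 in the TDT_SP and 0.613 and 0.708 in the DN libraries of the nodes, and had no kept peak in the 2 node LAG3_SP libraries. Regions higher in the labelled tumor groups were mostly missing from the nodes. Il1r2, Il18r1, Stat4 (32.67 kb from its nearer annotated start) and Stat3 at 18.07 kb had no kept peak in the 6 node libraries. Il1rl1 and Stat3 at 5.19 kb had 1 each, in NDLN LAG3_SP (0.279 and 0.02). The whole lists held weaker peaks, at Il1r2 and Stat4 in 3 of the 6 node libraries each. The Il21r start had a kept peak in NDLN LAG3_SP (0.49) and in both node TDT_SP libraries (0.261 and 0.087). Jak2 differed, with 0.617 and 0.51 in node TDT_SP, 0 and 0.77 in node LAG3_SP and 0 in both node DN libraries.

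**Figure D3:**
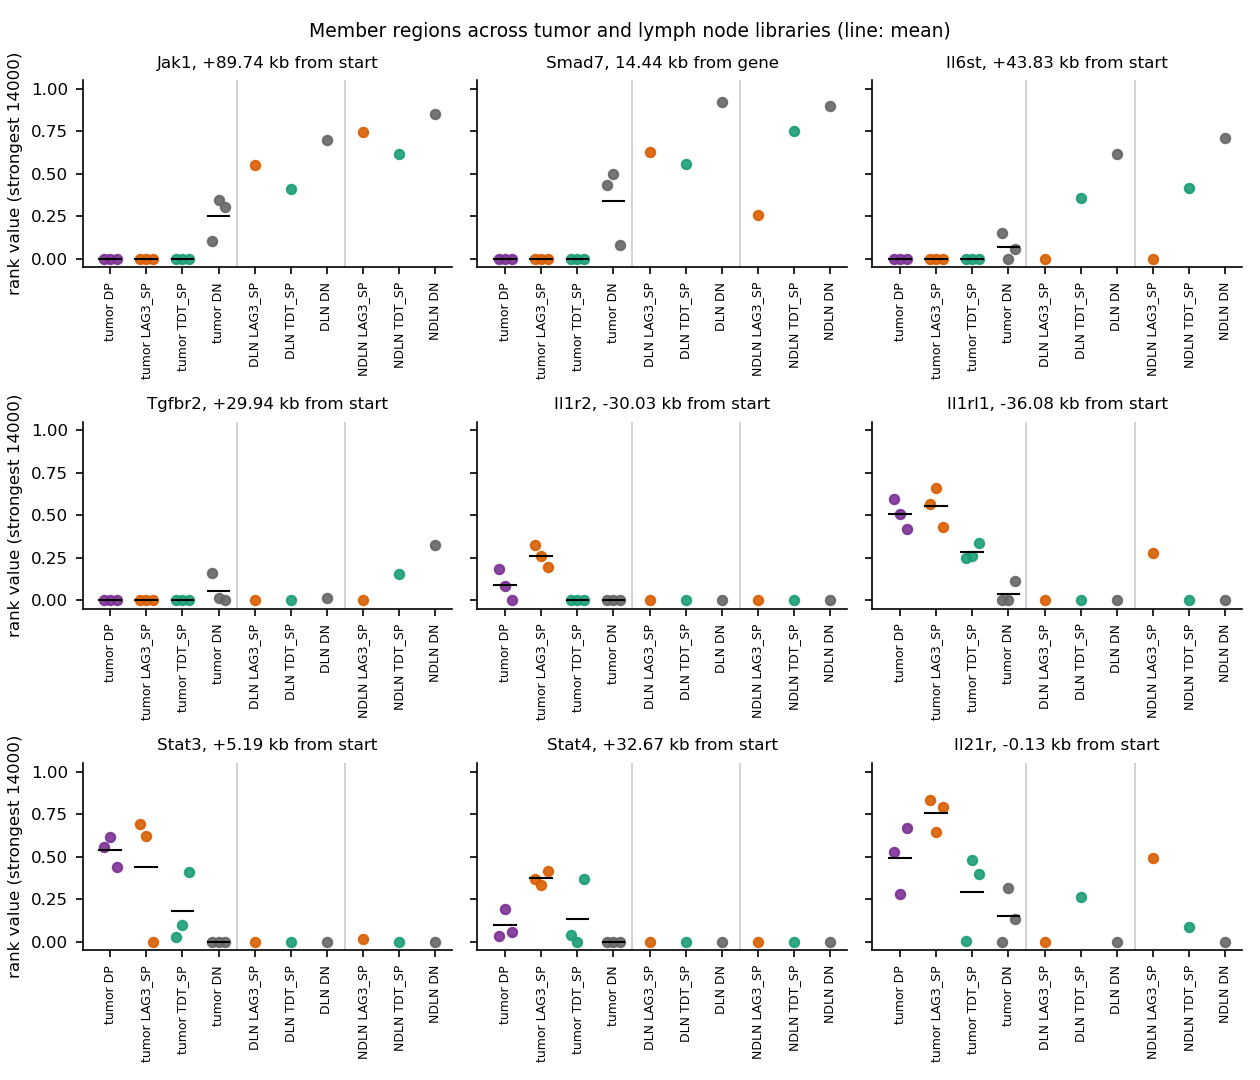
Rank values among the strongest 14000 peaks for 9 called regions in the 18 libraries, with tumor groups on the left, then the draining and the non-draining node. Points are libraries and lines are means of 3. Among these strongest peaks, the Jak1 and Smad7 regions had one in tumor DN and in every node library and in no labelled tumor library, while Il1r2 and Stat4 had one in tumor libraries alone; weaker peaks are not drawn.

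Tumor was then set against lymph node within the LAG3_SP, TDT_SP and DN groups (9 tumor and 6 node libraries; DP had no node counterpart). Tumor libraries ranked lower single regions of Jak1, Smad7, Il6st, Il7r, Tgfbr1 and Tgfbr3 and a region near an annotated Stat4 start. They ranked higher the start sites of Stat3 and Cish, a region at Smad7 and a region inside Il2rb. Of the 150 regions, 7 were higher in tumor and 24 lower by limma, where 22.2% of all 22997 regions were called (10.4% higher, 11.7% lower). The called share of the 150 was 20.7%, near that of all regions, and their median difference was -0.00644 against 0.00881. The 24 lower regions were spread over 15 genes, and 23 of them lay more than 1 kb from an annotated start site. Of the 25 regions near an annotated start site, 3 were higher and 1 lower. Over all regions the same split held 1439 higher and 518 lower of 8817 near a start site, and 954 and 2183 of 14180 elsewhere. Regions at the starts of genes without an annotated start site can fall under elsewhere in this split. No kept peak was present in any tumor library for 3 of the 24 lower regions (12.5%, against 26.1% of all regions called lower), and 9 had a kept peak in at most 1 of the 9 tumor libraries (37.5%, against 38.4%). In 6 of the 24 every tumor library lay below every node library (25.0%, against 9.44%), and in 1 of the 7 higher regions every tumor library lay above (14.3%, against 8.98%). With all peaks of each list 33 regions were called, of which 14 were among the 31, and with the strongest 4000 peaks of each library 6 were. Leaving out 1 library at a time left 25 to 31.

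Of the gamma chain receptors, Il2rb had the largest rise in tumor. Inside this gene of the IL-2 and IL-15 receptor beta chain (chr15:78493505-78494005) the tumor rank values ran from 0.39 to 0.629 with a median of 0.536, and the node values were 0 and 0.479 in LAG3_SP, 0.044 and 0.216 in TDT_SP and 0 in both DN libraries. The means were 0.521 ± 0.081 in tumor and 0.123 ± 0.19 in nodes (SD, n = 9 and 6; difference 0.398, SE 0.0832, limma adjusted p = 0.00423), with NDLN LAG3_SP the node library inside the tumor range. Il2ra had a region 0.09 kb beyond the gene (chr2:11693037-11693537) at 0 to 0.542 in tumor, with a median of 0.192, and at 0 in all 6 nodes (difference 0.257, SE 0.0793, limma adjusted p = 0.0302). That call ended without any of the 4 node DN and TDT_SP libraries (highest 0.0713).

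Il7r went the other way. A region 3.67 kb upstream of its start (chr15:9533293-9533793) had a kept peak in 1 of 9 tumor libraries, a DN library at 0.047, and in the nodes it was at 0.428 and 0.248 in TDT_SP, 0.523 and 0.477 in DN and 0 in both LAG3_SP libraries. The difference was -0.274 (SE 0.0646, limma adjusted p = 0.00804). Il4ra, the IL-4 receptor, had a region (chr7:125588652-125589152) at 0.19 to 0.639 in tumor, with a median of 0.512, and at 0.658 to 0.85 in nodes, with no overlap (difference -0.32, SE 0.0719, limma adjusted p = 0.00621). Regions of Il21r (chr7:125635307-125635807, difference -0.252, limma adjusted p = 0.047) and of Il2rb (chr15:78475510-78476010, difference -0.148, limma adjusted p = 0.0466) were also lower in tumor, and these calls ended in 12 and 13 of 15 leave-one-out fits.

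The IL-6 and IL-12 receptor genes had 4 of 18 regions lower in tumor and 0 higher. Il6st had 3 of them: 39.32 kb upstream of the start the tumor values ran from 0 to 0.492 and the node values from 0.421 to 0.741, with some overlap (difference -0.385, SE 0.0885, limma adjusted p = 0.00704). At 36.29 kb upstream 1 of 9 tumor libraries had a kept peak, at 0.209, against 0.26 to 0.601 in the nodes (difference -0.375, SE 0.0654, limma adjusted p = 0.00172). The downstream region described above was at 0 in 7 of 9 tumor libraries (difference -0.325, limma adjusted p = 0.00861). Il12rb2 stood high in both tissues. Its region inside the gene (chr6:67348003-67348503) was at 0.606 to 0.892 in tumor and 0.833 to 0.987 in nodes (difference -0.144, SE 0.0324, limma adjusted p = 0.00621). The IL-10 receptors had 0 of 6 regions called, and the IL-1, IL-18 and IL-17 receptors 1 of 13, the Il1rl1 region described above, at 0.291 ± 0.23 in tumor and 0.0465 ± 0.11 in nodes (difference 0.244, SE 0.0752, limma adjusted p = 0.03, up to 0.0641 without DLN LAG3_SP, DLN TDT_SP or NDLN TDT_SP).

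Tgfbr1 and Tgfbr3 each had 1 region lower in tumor, and Tgfbr2 had 0 of 13 called. Tgfbr1, the kinase that phosphorylates the SMADs, had a region 1.57 kb upstream of its start (chr4:47351406-47351906) with a kept peak in 1 of 9 tumor libraries, at 0.05, and values of 0.241 and 0 in LAG3_SP, 0.322 and 0.607 in TDT_SP and 0.508 and 0.634 in DN nodes (difference -0.38, SE 0.0749, limma adjusted p = 0.00314). Tgfbr3, the co-receptor betaglycan, had a region 26.47 kb outside the gene (chr5:107079846-107080346) at 0 in all 9 tumor libraries and at 0.075 and 0 in LAG3_SP, 0.295 and 0.465 in TDT_SP and 0.697 and 0.785 in DN nodes (difference -0.386, SE 0.0861, limma adjusted p = 0.00592). At Tgfbr3 the node DN libraries were the highest and the LAG3_SP libraries the lowest, and in both genes a node library at 0 met the tumor values.

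Jak1 had 4 of 13 regions lower in tumor and 0 higher. The region 89.81 kb downstream of the start averaged 0.0836 ± 0.14 in tumor and 0.645 ± 0.16 in nodes, the largest difference of the 150 regions (-0.562, SE 0.0768, limma adjusted p = 0.00055, n = 9 and 6). Another (chr4:101187285-101187785) was at 0.362 to 0.734 in tumor and 0.797 to 0.906 in nodes, with no overlap (difference -0.315, SE 0.0614, limma adjusted p = 0.00294). The other 2 had differences of -0.267 and -0.257 (limma adjusted p = 0.0156 and 0.0119). Jak2 and Jak3 had no called region.

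STAT genes split by factor. Stat3 was higher at its start site (chr11:100939481-100939981), with tumor values of 0.796 to 0.957 and a median of 0.851, and node values of 0.879 and 0.672 in LAG3_SP, 0.615 and 0.672 in TDT_SP and 0.426 and 0.425 in DN (difference 0.237, SE 0.0504, limma adjusted p = 0.00474). Only DLN LAG3_SP reached the tumor range. A further Stat3 region 34.45 kb downstream was at 0.499, 0.298 and 0.407 in tumor LAG3_SP and 0.329, 0.528 and 0 in tumor TDT_SP. It was at 0 in every tumor DN library and in 5 of 6 nodes, both node DN libraries among them. DN thus did not differ between the tissues there (difference over the subsets 0.226, limma adjusted p = 0.0487). That call ended in 12 of 15 leave-one-out fits. Stat4 had a region 0.36 kb downstream of the nearer of its annotated starts (chr1:52008348-52008848), and another start lies further upstream. The region was at 0 in all 9 tumor libraries and at 0.086 to 0.73 in every node (difference -0.494, SE 0.084, limma adjusted p = 0.00152). A second Stat4 region (chr1:52019548-52020048) was at 0.338 ± 0.15 in tumor and 0.613 ± 0.082 in nodes (difference -0.275, limma adjusted p = 0.0224, 0.0588 without DLN DN). Stat5b, activated by IL-2 and IL-7, had a region inside the gene (chr11:100823927-100824427) at 0 in 6 of 9 tumor libraries and 0 to 0.794 in nodes (difference -0.426, SE 0.0922, limma adjusted p = 0.00508).

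Cish, a STAT5 target that limits T cell receptor and cytokine signaling, was higher in tumor at its start site (chr9:107296320-107296820). The tumor values were 0.173 to 0.524 with a median of 0.421, and the node values were 0.365 and 0 in LAG3_SP, 0.242 and 0.133 in TDT_SP and 0 in both DN libraries. The means were 0.366 ± 0.13 and 0.123 ± 0.15 (difference 0.242, SE 0.082, limma adjusted p = 0.0438), the groups overlapped, and 13 of 15 leave-one-out fits ended the call. Across the tumor groups the Cish start stayed level, at 0.558 ± 0.083 in DP, 0.527 ± 0.1 in LAG3_SP, 0.6 ± 0.043 in TDT_SP and 0.47 ± 0.096 in DN on the scale of the strongest 19000 (SD, n = 3 each).

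The SMAD factors had 1 region higher and 6 lower of 23. Smad7 was higher at 1 region (chr18:75367135-75367635) and lower at 3 others. The higher region was at 0.333 to 0.626 in tumor and 0.053 to 0.252 in nodes without overlap (difference 0.277, SE 0.075, limma adjusted p = 0.0163). Smad7 had no promoter entry, so no distance from its start is given. The distal region was at 0.113 ± 0.2 in tumor and 0.668 ± 0.25 in nodes (difference -0.555, limma adjusted p = 0.00105), and the 2 inner regions differed by -0.31 and -0.302 (limma adjusted p = 0.00788 and 0.00393). Smad4, the shared partner of the pathway SMADs, had a region inside the gene at 0 in all 9 tumor libraries and at 0.292 and 0 in LAG3_SP, 0.135 and 0.167 in TDT_SP and 0.675 and 0.709 in DN nodes (difference -0.33, SE 0.0797, limma adjusted p = 0.0092). Smad3 had 2 regions lower inside the gene (differences -0.294 and -0.176, limma adjusted p = 0.0218 and 0.0279), of which the second ended in 6 of 15 leave-one-out fits. Ski had 1 of its 8 regions lower (chr4:155178271-155178771, difference -0.353, limma adjusted p = 0.00911), and Skil had none.

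**Figure D4:**
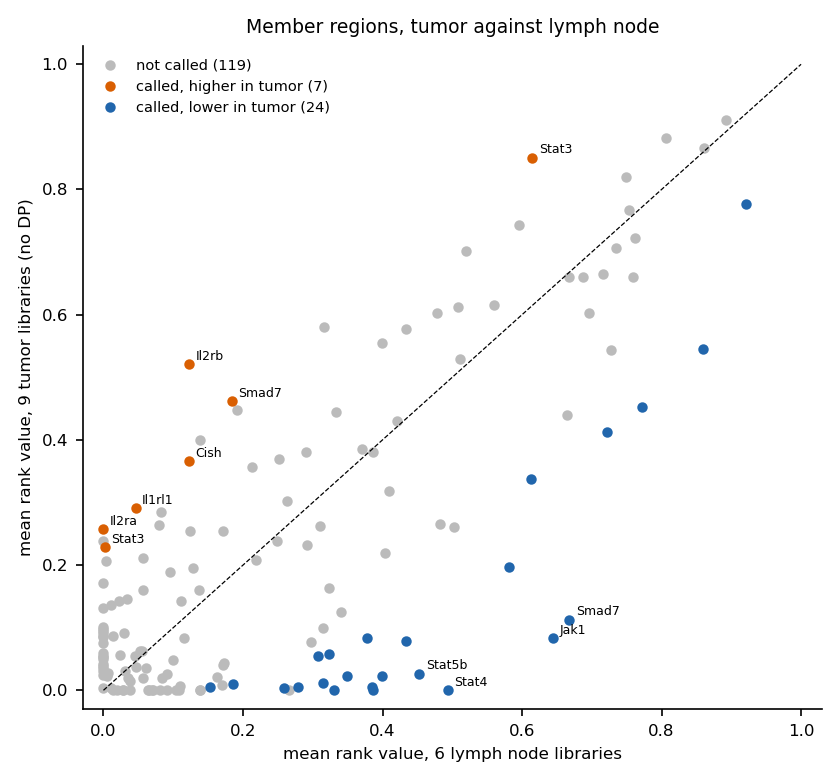
Mean rank value among the strongest 14000 peaks of the 150 regions, with 9 tumor libraries on the vertical and 6 lymph node libraries on the horizontal axis and the line of equal values dashed. The 24 regions lower in tumor (blue) lie mostly along the lower edge, near 0 in tumor. The 7 higher ones (orange) include the start sites of Stat3 and Cish and a region at Smad7.

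Whether a subset difference had another size in tumor than in the nodes was tested as an interaction. For LAG3_SP minus DN it was more positive or less negative in tumor for 9 of the 150 regions and the reverse for 1 by limma (8.51% of all regions; 6.3% and 2.2%), with 17 called without tumor LAG3_SP replicate 3. For TDT_SP minus DN it was so for 3 and the reverse for 1 (4.42% of all regions; 3.63% and 0.791%), with 7 to 9 called without DLN LAG3_SP, NDLN LAG3_SP, NDLN TDT_SP or NDLN DN. At most of these regions, among them Il7r, Tgfbr3, Smad4 and Jak1, the node DN libraries had the highest rank values of all 15.

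The start regions of Cish, Stat3 and Il21r, which were called above, are shown with the letters that a STAT or a SMAD binding site would hold, since these genes are themselves part of the pathways. The sequences are RefSeq's (GRCm38.p6), from 250 bases before to 50 bases after the start, written along the gene's own strand, and each lies wholly within the called region. The Cish sequence is chr9:107296409-107296708 (plus strand), that of Stat3 is chr11:100939491-100939790 (minus strand) and that of Il21r is chr7:125603179-125603478 (plus strand). Capitals mark TTCNNNGAA, the palindrome of STAT factors, or CAGAC and its complement GTCTG, a SMAD-binding core, searched on both strands, and no 2 matches overlap.
Cish promoter: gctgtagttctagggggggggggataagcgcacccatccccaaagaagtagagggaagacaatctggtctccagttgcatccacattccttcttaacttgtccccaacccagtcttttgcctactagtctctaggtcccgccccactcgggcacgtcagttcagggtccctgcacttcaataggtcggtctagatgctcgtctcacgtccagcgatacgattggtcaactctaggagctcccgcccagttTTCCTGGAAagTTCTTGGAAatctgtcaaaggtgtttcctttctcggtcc
Stat3 promoter: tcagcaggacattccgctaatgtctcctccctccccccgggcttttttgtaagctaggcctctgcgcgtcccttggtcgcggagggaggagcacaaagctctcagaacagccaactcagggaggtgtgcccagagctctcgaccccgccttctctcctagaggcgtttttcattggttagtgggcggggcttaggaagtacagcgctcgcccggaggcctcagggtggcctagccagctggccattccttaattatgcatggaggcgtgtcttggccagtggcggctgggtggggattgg
Il21r promoter: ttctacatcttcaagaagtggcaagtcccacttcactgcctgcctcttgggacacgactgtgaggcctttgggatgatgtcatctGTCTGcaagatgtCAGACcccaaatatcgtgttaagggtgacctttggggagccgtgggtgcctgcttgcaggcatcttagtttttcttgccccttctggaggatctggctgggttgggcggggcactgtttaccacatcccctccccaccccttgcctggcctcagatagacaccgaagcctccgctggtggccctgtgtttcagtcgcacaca
Cish held 2 STAT-type matches side by side, the first beginning at the annotated start. The TTCNNNGAA motif was present in 2726 of 32851 RefSeq promoters (8.3%), and 150 (0.457%) held 2 or more. The 27 of the 39 genes found in the promoter table had 36 promoters there, of which 5 held it, those of 5 genes: Cish, Il7r, Il12rb2, Il18r1 and Il1r2. The Il18r1 promoter among them also held 2 matches, beginning 219 and 152 bases before its start. Il21r held 2 SMAD-type cores, beginning 165 and 152 bases before the start. That short core is common, at 49.6% of all promoters, and 11 of the 36 promoters, of 10 genes, held it. Neither motif was in the Stat3 window. A match describes letters and does not show binding.

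Other genes of the same pathways, a list of 66 with 43 measured in tumor by 117 regions, had few calls in the tumor groups. DP minus DN had 2 higher and 1 lower (2.56%, against 3.94% of all regions), LAG3_SP minus DN 2 and 2 (3.42%, against 5.62%), and TDT_SP minus DN 0 of 117 by limma (against 0.576%). In TDT_SP minus DN the unadjusted limma p was under 0.05 for 11 (9.4%, against 9.44% of all regions). Socs5, a suppressor of cytokine signaling, had a region inside the gene at 0.854 ± 0.063 in DP, 0.922 ± 0.041 in LAG3_SP, 0.621 ± 0.05 in TDT_SP and 0.477 ± 0.037 in DN (SD, n = 3 each; limma adjusted p = 0.00198 for DP minus DN, 0.000907 for LAG3_SP minus DN and 0.0284 for LAG3_SP minus TDT_SP). A region 99.47 kb from Ptpn1, a phosphatase of JAK kinases, was at 0.642 ± 0.11 in DP, 0.613 ± 0.047 in LAG3_SP and 0.0608 ± 0.071 in DN (limma adjusted p = 0.00732 and 0.00797). Lower were a region at the activin receptor gene Acvr1b in DP, at 0.0651 ± 0.094 against 0.595 ± 0.14 in DN (limma adjusted p = 0.0461), and a region at Acvr2a in LAG3_SP, at 0 against 0.458 ± 0.038 in DN (limma adjusted p = 0.0136). In tumor minus lymph node, 9 of 103 regions were higher and 11 lower (19.4%, against 22.2% of all regions), among them Smad5, at 0 in all 9 tumor libraries and 0.434 ± 0.2 in nodes, and Pias1, an inhibitor of STAT factors, at 0.652 ± 0.16 in tumor and 0.145 ± 0.28 in nodes (limma adjusted p = 0.0018 and 0.00512).

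The sorted cells carried peaks at T cell genes, and peaks at some genes of other cells moved with the labelled groups. Of 8 T cell markers 6 to 8 had a kept peak in each library, and both Cd8a and Cd8b1 did, except for Cd8b1 in tumor DP replicate 4. Of 7 melanoma genes Mitf and Pmel had a kept peak in every library and Mlana in tumor LAG3_SP replicates 1 and 2, while Dct, Sox10, Tyr and Tyrp1 had none in any library. Their sums were 1.94 to 1.96 in DP, 1.96 to 2.31 in LAG3_SP, 1.62 to 1.86 in TDT_SP and 1.81 to 1.96 in DN tumor libraries. The 5 CD4 and Treg genes had summed best rank values of 1.98 to 2.29 in DP, 1.98 to 2.79 in LAG3_SP, 1.34 to 1.43 in TDT_SP and 1.04 to 1.07 in DN tumor libraries, with 4, 3 to 5, 3 to 4 and 2 to 3 genes holding a kept peak. Cd4 had no kept peak in DN, and Foxp3 none in DP, TDT_SP or DN. In DP and in LAG3_SP minus DN, the limma calls of this list were at Cd4 and Ikzf2 alone (12.5% of its regions, against 3.94% and 5.62% of all regions). Cd4 shares a locus with Lag3, the gene on which the groups were sorted. Of 8 myeloid genes 3 had a kept peak in each library of DP (sum 1.04 to 1.86), LAG3_SP (0.917 to 1.95) and TDT_SP (0.854 to 1.27), against 1 to 2 in DN (0.459 to 0.712), with Adgre1, Cebpa, Csf1r and Lyz2 at 0 throughout the tumor. Blk, a kinase gene of B cells, had a region called higher than DN in DP and LAG3_SP by limma, and the B cell factor gene Ebf1 had one in LAG3_SP. The 5 NK and innate genes went the other way in DP (0.911 to 1.14) and LAG3_SP (0.6 to 1.21), with 0.947 to 1.61 in TDT_SP and 1.21 to 1.36 in DN, and Ncr1 and Zbtb16 at 0. The 6 stroma and endothelium genes overlapped between groups, with 0.0775 to 0.529 in DP, 0.0267 to 0.588 in LAG3_SP, 0.268 to 0.523 in TDT_SP and 0.0924 to 0.451 in DN, and Cdh5, Col1a2, Kdr and Pdgfrb at 0. The CD4, Treg and myeloid sums moved in the same direction as the higher regions at Il1rl1, Il1r2, Il18r1, Stat3, Stat4, Jak2 and Il21r, and their part in those results was not tested.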

How the data were processed

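Bulk Omni-ATAC peak lists of 24 libraries were analysed. Per the submitters' processing notes, BWA was the aligner and MACS2 the peak caller, on GRCm38 (mm10); no version or setting is given in the sources used. Per library, the authors deposited the score, fold ratio, −log10 p and −log10 q of each peak, with no read counts, so depth is unknown. Groups follow the library names. Peaks on chromosomes 1 to 19 and X (all but 53 of 586440) were ranked by the deposited −log10 p within lists of 10000 or more peaks, and the strongest 19000 (tumor) or 14000 (tumor and node) were kept. Regions of 501 bp around summits needed an overlap of 1 bp in 2 libraries. Rank values were compared with limma 3.58.1 (lmFit, eBayes with trend; R 4.3.3), adjusted by Benjamini-Hochberg over all regions and called under 0.05, with the sorted subset as a covariate between tissues. Tables were made in Python 3.11.15 with pandas 2.3.3 and numpy 2.4.6. The fit was run on simulated data, made by shuffling deviations between libraries, and was required only to return added shifts on average. Those data do not reproduce groups at 0 in every library, so they do not test such calls.

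The 39 genes and the gene and marker lists were chosen with earlier results of these data known. Every called region of the 39 genes is given, and of the other pathway genes up to 4 with the smallest p in a comparison. The patterns of kept peaks across groups were counted after the values were seen. Alternatives were all peaks, the strongest 4000, 2 groups alone, a replicate block, summits inside regions, the fold ratio as the measure ranked, a limit of 10 kb, each library left out and, added after seeing the data, a set of 4 tumor libraries as a block. Gene positions came from a RefSeq table without strand for all genes. Promoters came from RefSeq (GRCm38.p6), with an entry for 27 of the 39 genes and none for Il2rb, Il10ra, Il10rb, Il12rb1, Il17ra, Il27ra, Tgfbr3, Socs2, Smad2, Smad4, Smad7 and Skil. The result of 1 marker list is not reported here.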

Additional observations from a re-analysis of the deposited data

Results flagged for a closer look

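The difference between LAG3_SP and DN had another size in tumor than in the lymph nodes at 10 regions of the 39 genes by the limma interaction test, and that between TDT_SP and DN at 4. Each node group had 1 library in each node, and limma assumes that these vary like the others. The largest was inside Il12rb2, 58.11 kb downstream of its start (chr6:67317830-67318330). Its rank value was 0 in all tumor LAG3_SP, TDT_SP and DN libraries, 0 in both node LAG3_SP libraries, 0 and 0.007 in node TDT_SP and 0.818 and 0.773 in node DN. The interaction was 0.795 for LAG3_SP (SE 0.0631, limma adjusted p = 9.69e-05) and 0.792 for TDT_SP (adjusted p = 0.00011). Tgfbr3 (0.703, limma adjusted p = 0.00074), Il6st downstream of the gene (0.59, 0.00191), Smad4 (0.546 for LAG3_SP, 0.00632, and 0.541 for TDT_SP, 0.00882), Il7r (0.484, 0.00285) and Jak1 97.23 kb downstream of its start (0.474, 0.00894) likewise had their highest rank values in the node DN libraries and values of 0 in tumor LAG3_SP. Smaller were Jak1 at 47.88 kb (0.209 for LAG3_SP, limma adjusted p = 0.0086, and 0.209 for TDT_SP, 0.0114) and Il4ra inside the gene (0.191, 0.0384), where node DN held the peaks too.

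At Il1r2 the peaks were in tumor. The region had rank values of 0.328, 0.258 and 0.199 in tumor LAG3_SP and 0 in tumor DN and in the nodes, with an interaction of 0.262 (SE 0.0529, limma adjusted p = 0.00846). The Stat3 start had the opposite sign (-0.357, SE 0.0878, limma adjusted p = 0.0246): tumor LAG3_SP (0.86, 0.851 and 0.796) and tumor DN (0.836, 0.885 and 0.806) were alike in range, while node LAG3_SP was at 0.879 and 0.672 and node DN at 0.426 and 0.425. Inside Ski, 53.45 kb downstream of its start, the TDT_SP interaction was -0.635 (SE 0.0896, limma adjusted p = 0.000954), with 0 in tumor TDT_SP, 0.159, 0.209 and 0 in tumor DN, 0.592 and 0.433 in node TDT_SP and 0 in node DN. The call at Il4ra ended in 11 and that at the Stat3 start in 5 of the leave-one-out fits.

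The short lists left out of the fits held peaks at the 39 genes as well: 24 in tumor DP replicate 3, 11 in tumor DN replicate 3, 12 in DLN TDT_SP replicate 2 and 32 in NDLN DN replicate 2. Tumor DP replicate 3 had peaks over the regions called higher at Il1rl1, Il1r2, Jak2 and the Il21r start, but none over those at Il18r1, Stat3 or Stat4, and tumor DN replicate 3 had none over any of these 8. Neither list had a peak over any of the 7 regions called lower. In the tumor DN lists used, the peaks over these 7 regions stood at place 7001 or beyond. Tumor DN replicate 3 is a list of 4603 peaks, too short to be likely to hold them. Its lack of peaks there therefore does not show whether they repeat. The same limit holds for tumor DP replicate 3, with 5188 peaks, at Il18r1, Stat3 and Stat4. There the DP lists used had their peaks at place 5377 or beyond. NDLN DN replicate 2 had a peak over the Jak1 region 89.74 kb from the start.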

How the results depend on the processing

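No call of a region named above changed direction under any alternative, and counting only peaks with the summit inside the region or genes within 10 kb kept the count within 1.5 times in every comparison except LAG3_SP minus TDT_SP, where the count was 0 at 10 kb against 1. With all peaks of each list, calls of the 177 regions fell to 0 in DP, LAG3_SP and TDT_SP minus DN and in LAG3_SP minus TDT_SP, against 9, 14, 6 and 1, and both interactions gave 0 against 10 and 4. Tumor minus lymph node then had 33 against 31, of which 14 were shared. The strongest 4000 peaks gave 0 in these 4 tumor comparisons, 6 for tumor minus lymph node and 1 for each interaction. Fits of 2 groups alone gave 1 for DP, 0 for LAG3_SP and 0 for TDT_SP minus DN, and 0 for LAG3_SP minus TDT_SP. Ranking by the fold ratio gave 5, 3, 1 and 0 in the tumor comparisons and 5 and 2 in the interactions. Leaving out 1 library at a time gave 4 to 14 for DP minus DN, 9 to 20 for LAG3_SP minus DN, 1 to 7 for TDT_SP minus DN, 0 to 1 for LAG3_SP minus DP, 0 for TDT_SP minus DP, 0 to 5 for LAG3_SP minus TDT_SP, 25 to 31 for tumor minus lymph node, and 8 to 17 and 4 to 9 for the interactions. The cause was not tested.

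Replicate numbers are shared between groups without a stated meaning. Over 14 same-numbered pairs of tumor libraries the deviations correlated at 0.027 to 0.268 (median 0.102), against -0.251 to 0.333 (median -0.126) over 40 other pairs. Not every same-numbered pair exceeded 0.1 and 2 of 12 libraries correlated best with their own number, so the numbers were not taken as pairs. With the replicate block the counts were 12 for DP, 10 for LAG3_SP and 0 for TDT_SP minus DN, 0 for LAG3_SP minus TDT_SP, 5 for tumor minus lymph node and 6 and 2 for the interactions. All node libraries used are replicate 1, so by construction that block sets the nodes against tumor replicates 1. Replicates 3 and 4 of the tumor groups as a set, chosen after seeing the data, gave 17 for DP, 20 for LAG3_SP and 6 for TDT_SP minus DN, 2 for LAG3_SP minus TDT_SP, 30 for tumor minus lymph node (25 of the 31 kept; Il1rl1, Il21r, Cish, both Smad3 regions and 1 at Il2rb were lost) and 13 and 4 for the interactions.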
